A study of Mus musculus with 9 samples.

Results

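Hypidone after MCAO is compared here with MCAO alone, over all genes, in 6 of the 9 libraries of a mouse brain RNA sequencing study. Members were taken by their sample labels: libraries 2, 7 and 8 of the group that received hypidone hydrochloride (YL-0919), 5 mg/kg for 7 days, after MCAO surgery, and libraries 4, 5 and 6 of the group with MCAO surgery and no hypidone on its label. The other 3 libraries, control 4, 5 and 6, carry no treatment, enter the estimate of spread, and are given beside the results as the background level. MCAO, middle cerebral artery occlusion, closes the artery that supplies much of one hemisphere and is a standard surgical model of ischaemic stroke. The labels give brain as the tissue but no region or hemisphere, strain, age or sex, time after surgery, sham operation or vehicle, and they do not say that the libraries of a group came from separate animals. P-values therefore measure the spread between these libraries, which may be technical. The question, as the series title puts it in other words, is whether the drug lessens injury and inflammation after ischaemia.

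Hypidone is known as an inhibitor of serotonin reuptake that also acts on 5-HT1A and 5-HT6 receptors. In ischaemic brain, neurons lose synaptic activity and the genes it drives, stress hormone and energy shortage programmes are switched on, and microglia and astrocytes near the infarct become reactive while blood-borne leukocytes and macrophages enter. Bulk tissue holds all these cells together, so that fewer cells of a type and less RNA per cell cannot be told apart in any result below.

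The 6 libraries held 33815015 to 37325027 gene counts each. MCAO libraries stood apart from each other: pairs of them had a Pearson correlation of log2 CPM across genes (CPM being counts scaled for library size) of 0.915 to 0.971, against 0.984 to 0.989 for pairs of hypidone libraries and 0.905 to 0.961 between the groups. MCAO 5, followed by MCAO 6, had the highest mean log2 CPM of the activated microglial, macrophage and reactive astrocyte lists, and MCAO 4 was the lowest of the 3. Control 5 carried hippocampal neuron genes at a mean log2 CPM of 6.19, against 2.12 to 2.49 in the other 8 libraries, and choroid plexus genes at 3.04, against at most 0.66. Pan-neuronal genes were abundant in every library (mean log2 CPM 8.26 to 9.38) and T cell genes were near the floor (at most -0.27).

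Of 14756 genes tested, 1215 were higher and 1222 lower with hypidone at an adjusted p under 0.05, so that 16.5% were called, 8.23% in the upward and 8.28% in the downward direction. The fitted change was at least 2-fold in 481 of the higher and 572 of the lower genes. The median log2 fold change was -0.04 over all tested genes, 0.88 over the higher and -0.93 over the lower ones. Groups did not overlap in 39.9% of genes tested, 20.9% with hypidone higher and 19.0% with hypidone lower. These counts moved with single libraries. Without MCAO 6 they were 388 and 341, without hypidone 2, 7 or 8 between 315 and 350 higher and between 233 and 250 lower, and without MCAO 4 they were 1752 and 2123. Without control 5, which enters the estimate of spread, they were 1617 and 1545. Of the called genes, 258 higher and 179 lower ones, 17.9% of the 2437, kept their call and direction whichever of the 9 libraries was left out. They are called the stable genes below.

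The spread within the MCAO group differed between the directions. Among the lower genes, 124 (10.1%) differed by at least 2 log2 units between the highest and the lowest MCAO library, on the scale of log2(CPM + 0.5), against 3 (0.247%) of the higher genes and 6.41% of all genes tested. MCAO 5 was the MCAO library farthest from the hypidone group in 534 of the lower genes and MCAO 6 in 422. Among the higher genes MCAO 6 was farthest in 559. The median range over the hypidone libraries was 0.21 in the higher and 0.22 in the lower genes, and 0.25 in all genes tested.

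**Figure D1:**
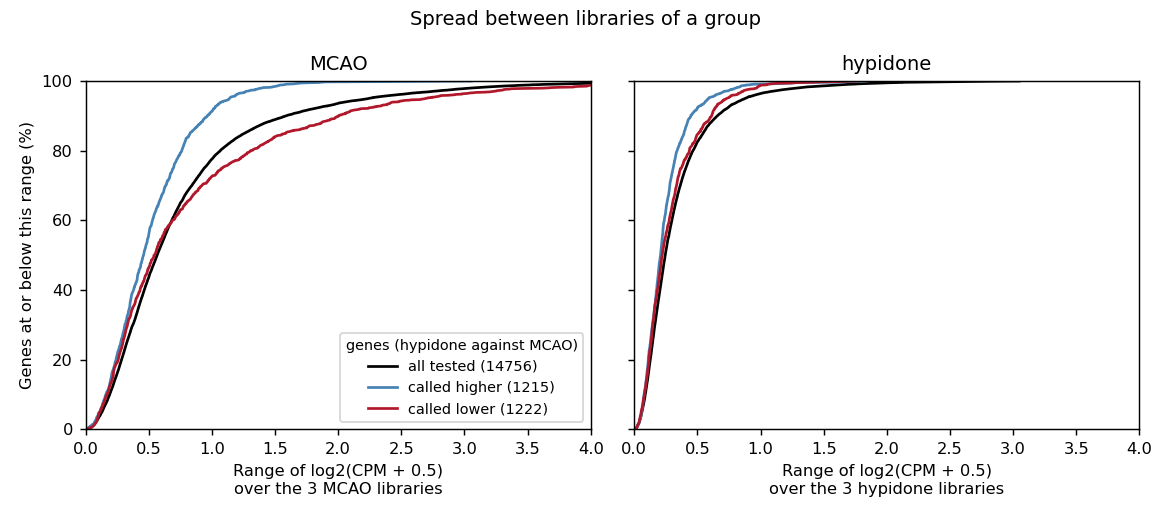
Cumulative share of genes (y axis, percent) by the range of log2(CPM + 0.5) over the 3 libraries of a group (x axis, log2 units), for MCAO and hypidone, in all tested genes and in the genes called higher or lower with hypidone. The curve of the lower genes in the MCAO panel has the longest right tail, with 10.1% of genes at a range of 2 or more, and the hypidone curves rise much sooner.

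The genes with the lowest p values were those at one level in all MCAO libraries and at another in all hypidone libraries. Pnpla2, which encodes the lipase that starts the breakdown of stored triglyceride, stood at 125, 112 and 140 CPM in MCAO 4, 5 and 6 and at 23.3, 27.1 and 27.3 CPM in hypidone 2, 7 and 8. Each hypidone library lay more than 4-fold under each MCAO library, and the controls stood at 24.9, 23.7 and 26.7 CPM. Pnpla2 fell by 2.28 ± 0.13 on the log2 scale (SE, n = 3 libraries per group, adjusted p = 0.000263). Tlr2, a microglial receptor for bacterial lipoproteins and for molecules set free by damaged cells, was at 12.2, 17.4 and 15.2 CPM with MCAO and at 2.39, 1.59 and 1.58 CPM with hypidone. Its 2 groups were far apart, and the controls were lower still, at 0.607 to 1.11 CPM. The log2 fold change of Tlr2 was -3.01 ± 0.31 (adjusted p = 0.00201). Nrros, a microglial protein that holds latent TGF-beta, was at 20.4, 21.6 and 17.1 CPM with MCAO and at 4.61, 5.72 and 5.95 CPM with hypidone, and fell by 1.86 ± 0.18. Sox4, a transcription factor of immature neural cells, fell from 51.2, 51.9 and 59.7 CPM to 17.5, 20.0 and 15.6 CPM, a log2 fold change of -1.61 ± 0.14. Trp53inp1, a stress gene induced by p53, and Pik3ip1, an inhibitor of PI3 kinase, fell by 2.16 ± 0.17 and 1.40 ± 0.12.

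Among the genes that rose, Ankrd34a was at 28.1, 25.8 and 24.3 CPM with MCAO and at 85.6, 86.9 and 85.8 CPM with hypidone. The hypidone values of Ankrd34a had an SD of 0.713 CPM around a mean of 86.1, and its log2 fold change was 1.72 ± 0.13 (adjusted p = 0.00145). Shc3, the neuronal adaptor that couples Trk neurotrophin receptors to downstream kinases, rose from 57.9, 43.4 and 40.7 CPM to 205, 232 and 202 CPM, a log2 fold change of 2.17 ± 0.18 (adjusted p = 0.00152). The control values of Shc3 were 204, 156 and 222 CPM, in the range of the hypidone group or under it. Nab2, a corepressor of the EGR transcription factors, was at 26.9, 25.6 and 23.0 CPM with MCAO and at 69.7, 70.4 and 66.1 CPM with hypidone, and rose by 1.45 ± 0.12. Every hypidone library lay above every control library in Nab2 (49.1 to 62.1 CPM). Hdac9, a class IIa histone deacetylase, and Tufm, the mitochondrial translation elongation factor, rose by 1.70 ± 0.15 and 1.19 ± 0.11. Npy5r, a receptor for neuropeptide Y, was at only 1.04 to 1.34 CPM with MCAO and at 6.52 to 7.06 CPM with hypidone, a log2 fold change of 2.56 ± 0.25. The others of the 20 genes chosen in this way were Fmnl1, Fbxo9, Dnajb5 and Brms1l, which rose, and Phyhd1, Lrrc58, Cnppd1 and Inpp5k, which fell.

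**Figure D2:**
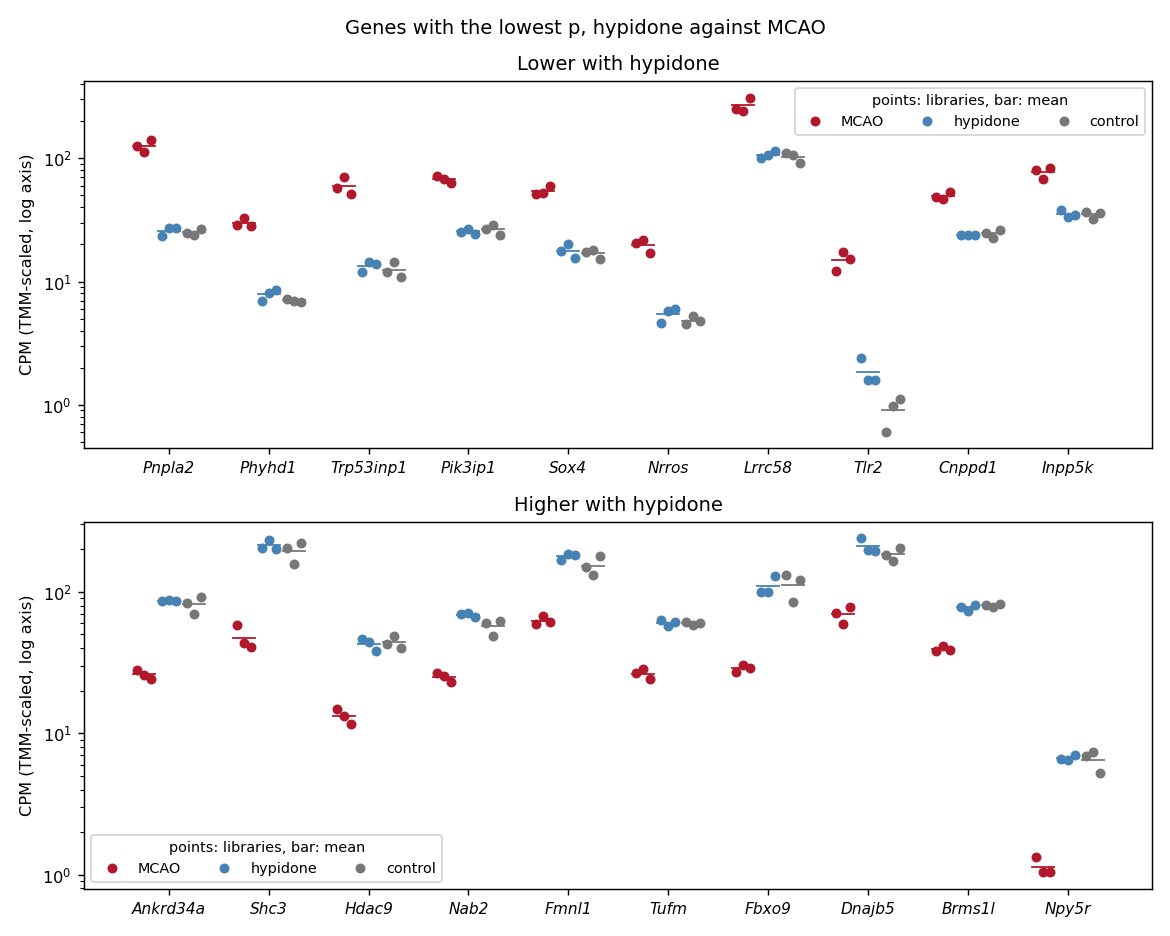
Level of the 10 genes with the lowest p in each direction (y axis, TMM-scaled CPM on a log axis), with 1 point per library and a bar at the group mean. Genes were chosen among called ones whose groups do not overlap, so the 3 hypidone points lie clear of the 3 MCAO points by choice. For Pnpla2 they lie at 23.3 to 27.3 against 112 to 140 CPM.

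Some genes of low abundance changed by a large factor. Cort, the cortistatin peptide of interneurons, was at 0.626, 0.130 and 0.220 CPM with MCAO and at 7.69, 5.90 and 6.91 CPM with hypidone, a log2 fold change of 4.39 ± 0.50 (adjusted p = 0.00354). Asb4, which encodes a subunit of ubiquitin ligases, was at 4.46, 1.85 and 9.75 CPM with MCAO and at no more than 0.410 CPM with hypidone, a log2 fold change of -4.49 ± 0.78. Gkn3 rose by 4.24 ± 0.73 from at most 0.729 CPM. All 3 were stable genes. Chil3, a product of alternatively activated macrophages, had an estimate of -5.34 ± 1.31, with 41.7 CPM in MCAO 5 but 1.11 in MCAO 4 and 5.00 in MCAO 6. The call of Chil3 was lost without MCAO 6 or any 1 hypidone library (adjusted p 0.0511 to 0.110), and its estimate moved by more than 1.5 times without MCAO 5.

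The gene lists differed in how many members changed and in how evenly they did so across the MCAO libraries. Sets with at least 50% of tested members called were the glucocorticoid-induced genes, reactive astrocytes, lysosome, activated microglia and p53 targets among the falling lists, and sterol synthesis and neuropeptides among the rising ones, beside erythrocyte genes. Stable genes made up 10 of 16 glucocorticoid-induced genes, 10 of 24 sterol genes and 6 of 20 FOXO genes, against 2.96% of all genes tested, and 0 of 20 activated microglial, 0 of 17 reactive astrocyte and 0 of 17 complement genes. The lists were chosen with earlier results of these data known, so these shares describe the lists and are no test. Lists also share members: Ddit4 counts in both the glucocorticoid and the FOXO list.

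**Figure D3:**
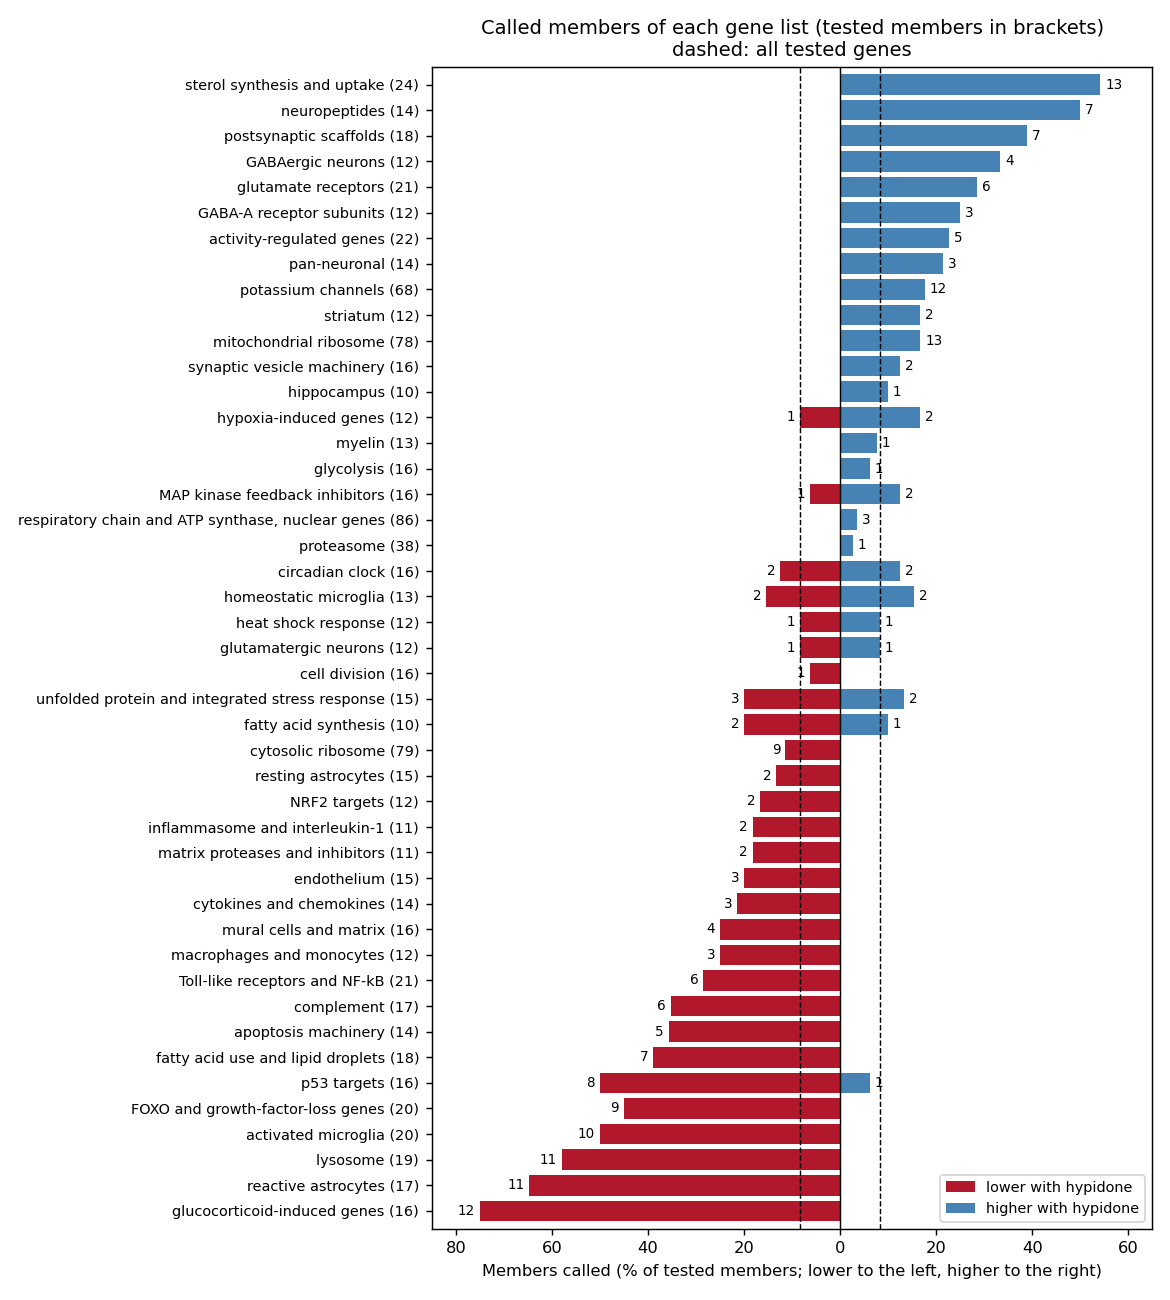
Members called lower (left) or higher (right) with hypidone as a percent of the tested members (x axis), for each gene list with at least 10 tested members and at least 1 call (y axis, tested members in brackets, counts at the bars). Dashed lines mark all tested genes, 8.28% lower and 8.23% higher. Glucocorticoid-induced genes reach 75.0% lower and sterol genes 54.2% higher.

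Glucocorticoid-induced genes are switched on through the glucocorticoid receptor when stress hormone is high. Of 16 tested, 12 fell with hypidone and 0 rose (75.0%, beside 8.28% of all genes tested), with a median log2 fold change of -1.58. The list stood at a mean log2 CPM of 6.64, 6.85 and 6.97 in MCAO 4, 5 and 6, at 5.05 to 5.34 with hypidone and at 5.03 to 5.32 in the controls, so that the 3 MCAO libraries were alike. Between 10 and 15 members fell whichever library was left out. Fkbp5, the chaperone that damps the glucocorticoid receptor, was at 183, 272 and 185 CPM with MCAO and at 35.3, 32.05 and 39.6 CPM with hypidone, a log2 fold change of -2.58 ± 0.36 (adjusted p = 0.00551). The kinase gene Sgk1 was at 259, 317 and 306 CPM and at 121, 82.4 and 107 CPM, and fell by 1.51 ± 0.18. The cell cycle inhibitor Cdkn1a, also a p53 target, was at 170, 96.8 and 160 CPM and at 22.7 to 24.6 CPM with hypidone, and fell by 2.60 ± 0.36. Mt2, a metallothionein that binds zinc and copper, was at 292, 479 and 641 CPM and at 78.0, 84.9 and 106 CPM, a log2 fold change of -2.39 ± 0.33. Ddit4, an inhibitor of mTORC1 signalling, and Pdk4, the kinase that closes pyruvate dehydrogenase, fell by 1.45 ± 0.19 and 1.70 ± 0.29. Tsc22d3, known as GILZ and much used as a readout of the receptor, did not pass the test (-0.53 ± 0.16, adjusted p = 0.0557). Fkbp5, Pdk4 and Tsc22d3 were named after their values were seen.

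FOXO factors enter the nucleus when growth factor signalling through PI3 kinase and AKT is low, and drive genes of catabolism and growth arrest. Of 20 genes of this kind 9 fell and 0 rose (median -0.53), with 6 to 10 lower when 1 library was left out, and the list was at a mean log2 CPM of 6.59 to 6.67 in the MCAO, 5.88 to 5.89 in the hypidone and 5.80 to 5.91 in the control libraries. Besides Pnpla2, Trp53inp1, Pik3ip1 and Ddit4, the stable falling genes were Sesn1 and Klf15. Sesn1, a brake on mTORC1, was at 229, 154 and 173 CPM with MCAO and at 74.6, 73.1 and 78.7 CPM with hypidone, a log2 fold change of -1.30 ± 0.16 (adjusted p = 0.00419). Klf15, a transcription factor of amino acid and lipid catabolism that glucocorticoids also induce, was at 89.9, 64.6 and 97.6 CPM and at 33.6, 31.6 and 33.0 CPM, and fell by 1.36 ± 0.18. Other classical FOXO targets stood at changes near 0, with Bnip3 at 0.02, Map1lc3b at 0.04 and Ccng2 at 0.03. Klf15 and the genes near 0 were named after their values were seen.

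Genes of fatty acid use and lipid droplets fell in 7 of 18 cases (38.9%, beside 8.28% of all genes tested, median -0.74) and rose in 0. Between 3 and 12 fell when 1 library was left out, 3 of them without MCAO 6 or any 1 hypidone library, and the median was -0.40 without MCAO 5. Pnpla2, Plin4 and Angptl4 were the stable ones. Plin4, a coat protein of lipid droplets that is also in the glucocorticoid list, was at 22.9, 25.8 and 29.2 CPM with MCAO and at 2.53, 0.472 and 1.99 CPM with hypidone, a log2 fold change of -3.96 ± 0.55 (adjusted p = 0.00551). Angptl4, a secreted inhibitor of lipoprotein lipase, was at 12.03, 62.5 and 21.9 CPM and at 2.45 to 3.10 CPM, and fell by 3.58 ± 0.57. Fatty acid synthesis was divided: the elongase gene Elovl6 rose by 1.14 ± 0.12, from 23.3 to 24.9 CPM to 48.8 to 58.1 CPM, while Srebf1, the transcription factor of fatty acid synthesis, fell by 1.18 ± 0.20, from 58.2 to 99.9 CPM to 30.1 to 38.2 CPM.

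Sterol synthesis and uptake is the pathway under the transcription factor SREBP2, encoded by Srebf2. Of 24 genes 13 rose and 0 fell (54.2%, beside 8.23% of all genes tested), with a median of 0.80, and between 10 and 15 rose whichever library was left out. The list was at a mean log2 CPM of 4.55, 4.18 and 4.59 with MCAO, at 5.08 to 5.41 with hypidone and at 5.04 to 5.35 in the controls. Srebf2 was at 97.1, 61.5 and 85.7 CPM with MCAO and at 186, 180 and 173 CPM with hypidone, and rose by 1.14 ± 0.17 (adjusted p = 0.00621). Idi1, the isomerase that makes the second isoprenoid building block, was at 6.34, 5.16 and 6.78 CPM and at 13.8, 16.2 and 20.6 CPM, a log2 fold change of 1.47 ± 0.19. Cyp51, the lanosterol demethylase, was at 27.4, 29.6 and 38.8 CPM and at 67.3, 69.6 and 94.3 CPM, and rose by 1.27 ± 0.18. Hmgcs1, the synthase at the entry of the pathway, rose by 1.07 ± 0.17, and the demethylase gene Msmo1 by 1.37 ± 0.22. Hypidone 8 held the highest value of Idi1, Cyp51, Hmgcs1 and Msmo1. The pathway did not change throughout: Fdft1, squalene synthase, and Lss, lanosterol synthase, had estimates of -0.26 ± 0.31 and -0.54 ± 0.18 and did not pass the test (adjusted p = 0.584 and 0.0719). Hmgcs1, Msmo1, Fdft1 and Lss were named after their values were seen.

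The CCAAT box, bound by NF-Y, is known to act next to sterol elements in promoters of this pathway, and the 250 bases before the start of 4 rising sterol genes are shown because every sterol gene with a promoter in the reference held it. Promoters are from RefSeq on GRCm38.p6, the mouse build that mm10 names, written 5′ to 3′ on the strand of the gene, with CCAAT or its reverse complement ATTGG in capitals. Idi1 lies at chr13:8885356-8885605 on the plus strand, Cyp51 at chr5:4104698-4104947 on the minus strand, Hmgcs1 at chr13:119690101-119690350 on the plus strand and Srebf2 at chr15:82147019-82147268 on the plus strand.
Idi1: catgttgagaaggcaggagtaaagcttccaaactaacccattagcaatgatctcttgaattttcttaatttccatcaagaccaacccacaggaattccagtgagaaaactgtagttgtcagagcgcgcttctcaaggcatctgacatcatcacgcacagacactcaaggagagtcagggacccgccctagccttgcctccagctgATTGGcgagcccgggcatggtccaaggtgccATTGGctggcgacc
Cyp51: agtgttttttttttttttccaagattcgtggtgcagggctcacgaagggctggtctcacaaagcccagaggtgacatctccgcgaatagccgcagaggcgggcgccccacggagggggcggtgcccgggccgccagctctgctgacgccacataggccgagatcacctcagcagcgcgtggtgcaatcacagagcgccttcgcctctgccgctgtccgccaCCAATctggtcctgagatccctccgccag
Hmgcs1: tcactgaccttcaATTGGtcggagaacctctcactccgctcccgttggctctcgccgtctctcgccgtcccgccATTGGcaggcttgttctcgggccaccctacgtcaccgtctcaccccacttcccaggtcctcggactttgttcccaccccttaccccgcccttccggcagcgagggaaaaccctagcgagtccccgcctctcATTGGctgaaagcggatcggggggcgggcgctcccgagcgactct
Srebf2: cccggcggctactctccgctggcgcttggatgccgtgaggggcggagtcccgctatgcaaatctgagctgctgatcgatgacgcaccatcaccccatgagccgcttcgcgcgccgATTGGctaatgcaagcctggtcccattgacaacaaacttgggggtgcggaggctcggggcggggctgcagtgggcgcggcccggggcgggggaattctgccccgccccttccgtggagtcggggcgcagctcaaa
The motif was searched on both strands without a gap, and was chosen after the counts were seen. It was in all 16 of the 16 sterol genes with a promoter, in 40.2% of the 11676 tested genes with one, in 42.1% of the genes called higher and in 39.5% of those called lower. The 16 include Lss, which was not called, so the box did not separate rising sterol genes from the others. Idi1 held 2 copies and Hmgcs1 held 3. The letters TCACCCCAC, one form of the sterol regulatory element, were in 1 of the 16, Hmgcs1, and in 0.634% of all promoters. A match is a description of the sequence and not a site of binding.

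Genes of neuronal activity and its growth factor signals rose in part. Arc, the immediate early gene of active synapses, was at 15.4, 29.9 and 74.8 CPM with MCAO and at 675, 536 and 437 CPM with hypidone, a log2 fold change of 3.78 ± 0.63 (adjusted p = 0.00859). Hypidone and MCAO did not overlap, and the controls were at 571, 177 and 528 CPM. Bdnf, the neurotrophin released by active neurons, was at 3.61, 3.36 and 11.1 CPM and at 45.9, 35.2 and 30.6 CPM, and rose by 2.63 ± 0.46. Vgf, a secreted neuropeptide precursor that neurotrophins induce, was at 68.9, 54.6 and 97.4 CPM and at 307, 276 and 226 CPM, and rose by 1.87 ± 0.26. Bdnf and Vgf were the 2 called of 9 neurotrophin and growth factor genes (22.2%, beside 8.23% of all genes tested). That list had a median of 0.07, with 4 estimates below 0 and 0 called lower. Of 16 feedback inhibitors of the RAS and MAP kinase pathway 2 rose (12.5%, close to the 8.23% of all genes tested) and 1 fell. Spred3 and Spred2 rose by 1.80 ± 0.20 and 0.78 ± 0.11. Spry1 fell by 1.14 ± 0.20, a call lost without hypidone 7 (adjusted p = 0.0510).

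The list of activity-regulated genes as a whole was uneven. Of the 22 genes 5 were called higher (22.7%, beside 8.23% of all genes tested) and 0 lower, with a median of 0.92. MCAO 4 and 5 had a mean log2 CPM of 3.59 and 3.72 over the list and MCAO 6 one of 5.86, beside 5.53 to 6.22 with hypidone and 5.24 to 5.78 in the controls. Fos, a subunit of AP-1, was at 7.25 and 13.5 CPM in MCAO 4 and 5 but at 229 CPM in MCAO 6, and at 118, 70.5 and 51 CPM with hypidone. Npas4, a transcription factor that calcium entry induces in neurons, was at 0.626 and 0.573 CPM in MCAO 4 and 5 and at 87.2 CPM in MCAO 6, and at 27.3, 26.1 and 15.6 CPM with hypidone. MCAO 6 was thus above all hypidone libraries in both, and MCAO 4 and 5 below them. The estimate was -0.06 ± 1.07 for Fos and -0.36 ± 1.43 for Npas4 (adjusted p = 0.977 and 0.881), and without MCAO 6 it turned to 2.94 and 5.25 (adjusted p = 0.0400 and 0.0131). Fosb turned from -1.23 ± 1.08 (adjusted p = 0.450) to 2.12 without MCAO 6 (adjusted p = 0.0190). Without MCAO 6, 12 of the 22 genes were called higher. Arc and Bdnf kept their calls whichever library was left out, and so did Vgf, which is not among the 22. Fos, Fosb and Npas4 were named after their values were seen.

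Neuropeptide genes rose in 7 of 14 cases and fell in 0 (median 1.12), with Cort, Pnoc and Sst stable and Cck, Tac1, Crh and Penk not. Pnoc, which encodes nociceptin, was at 2.99, 1.20 and 1.87 CPM with MCAO and at 9.56, 9.83 and 9.02 CPM with hypidone, a log2 fold change of 2.23 ± 0.31. Sst, somatostatin of inhibitory interneurons, was at 128, 73.9 and 108 CPM and at 226, 266 and 234 CPM, and rose by 1.22 ± 0.20 (adjusted p = 0.00737). Crh, corticotropin-releasing hormone, was at 1.42, 0.443 and 0.879 CPM and at 8.61, 8.71 and 8.76 CPM, a change of 3.25 ± 0.76. Its control values were 8.59, 0.842 and 7.63 CPM, and its call was lost without MCAO 6 or any 1 hypidone library (adjusted p 0.0690 to 0.0849). With only the 6 libraries, and so without the controls, Crh passed (adjusted p = 0.0122). Only 3 of the 14 were called without MCAO 6. Crh was named after its values were seen. Markers of inhibitory neurons rose in 4 of 12 cases (33.3%, beside 8.23% of all genes tested). However, 3 of the 4, Cort, Sst and Cck, are the neuropeptide genes counted above. The other, Dlx1, a homeobox gene of interneurons, had a log2 fold change of 0.78 ± 0.22, and its call was lost without MCAO 5 or 6, control 4 or 6 or any 1 hypidone library (adjusted p 0.0649 to 0.143) and with only the 6 libraries (adjusted p = 0.0751).

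The 250 bases before the start of Sst are shown because they hold the palindrome TGACGTCA, the cyclic AMP response element through which calcium and cyclic AMP signals are known to drive this gene. They lie at chr16:23890845-23891094 on the minus strand of GRCm38.p6 (RefSeq), with the element in capitals, its first base 48 bases before the start.
Sst: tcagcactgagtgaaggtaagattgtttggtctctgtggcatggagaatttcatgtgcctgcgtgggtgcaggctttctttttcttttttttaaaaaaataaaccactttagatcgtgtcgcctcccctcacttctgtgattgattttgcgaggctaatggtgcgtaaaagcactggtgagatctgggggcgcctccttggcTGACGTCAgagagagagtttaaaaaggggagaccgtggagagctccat
These letters were in 3 of the 11 neuropeptide genes with a promoter (Sst, Scg2 and Chgb), of which Sst alone was called. They were in 4.43% of the genes called higher, 2.26% of those called lower and 2.88% of all 11676 tested genes with a promoter. No test was made of these shares.

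In the lists of postsynaptic scaffolds and of vesicle release some members rose and none was called lower. Postsynaptic scaffold genes were higher in 7 of 18 cases (38.9%, beside 8.23% of all genes tested, median 0.67). Shank3 and Shank1, which tie glutamate receptors to the cytoskeleton, were at 116, 79.5 and 101 CPM and at 271, 130 and 175 CPM with MCAO. With hypidone Shank3 was at 189, 233 and 208 CPM and Shank1 at 518, 534 and 468 CPM, log2 fold changes of 1.09 ± 0.16 and 1.40 ± 0.24. MCAO 5 was the lowest library in both. Without MCAO 6, 2 of the 18 were called, and without MCAO 4, 11. Of the vesicle release genes 2 of 16 rose (12.5%, close to the 8.23% of all genes tested), Rims1 by 1.85 ± 0.29 and Unc13a by 1.72 ± 0.28, both proteins of the active zone that ready vesicles for fusion. Rims1 was at 135, 70.2 and 80.9 CPM with MCAO and at 337, 344 and 350 CPM with hypidone. Of 12 glutamatergic neuron genes 1 rose and 1 fell (8.33% each, close to the 8.23% and 8.28% of all genes tested). Slc17a6 rose by 1.80 ± 0.41 and Nptx1 fell by 0.90 ± 0.21. Both calls were lost without MCAO 6 or any 1 hypidone library (adjusted p 0.0596 to 0.104).

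Among receptors, 6 of 21 glutamate receptor genes (28.6%) and 3 of 12 GABA-A subunit genes (25.0%) rose and 0 fell. Of all genes tested 8.23% rose. With 1 library left out, 3 to 9 and 1 to 6 were higher. The stable ones among the glutamate receptors were all metabotropic. Grm3, abundant in astrocytes and coupled to inhibitory G proteins, was at 22.1, 28.0 and 24.2 CPM with MCAO and at 57.9, 56.3 and 53.4 CPM with hypidone, a log2 fold change of 1.17 ± 0.14 (adjusted p = 0.00412). Grm7 and Grm4, presynaptic receptors that restrain transmitter release, rose by 0.90 ± 0.11 and 1.60 ± 0.28. Gabra2, the alpha-2 subunit of the GABA-A receptor, was at 14.7, 13.8 and 14.1 CPM and at 43.6, 46.9 and 43.5 CPM, a log2 fold change of 1.65 ± 0.18 (adjusted p = 0.00263). Per length, Gabra2 stood at a mean of 7.95 FPKM with hypidone, against 47.2 FPKM for Gabrb2, the beta-2 subunit. Gabrb2 had a log2 fold change of 0.88 ± 0.25, and its call was lost without MCAO 5 or 6, control 4 or 6 or any 1 hypidone library (adjusted p 0.0564 to 0.141). Potassium channel genes rose in 12 of 68 cases (17.6%), of which Kcnk12, a two-pore channel subunit, was stable (1.51 ± 0.20), and 1 to 20 were called when 1 library was left out. The 14 pan-neuronal genes had a median of 0.53 with every estimate above 0, and 3 were called higher (21.4%, beside 8.23% of all genes tested). Of these Elavl3, a neuronal RNA-binding protein, was stable at 0.68 ± 0.11. The part of the neuronal share of the tissue in the synaptic results was not tested.

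The medians of the ribosome lists were close to 0. Of 78 mitochondrial ribosome genes 13 rose and 0 fell (16.7%, beside 8.23% of all genes tested, median 0.20), among them the stable genes Mrpl49 (0.79 ± 0.12), Mrps2 (0.68 ± 0.11) and Mrps25 (1.15 ± 0.21). Mrpl49 was at 29.8, 29.7 and 24.2 CPM with MCAO and at 47.6, 44.9 and 52.6 CPM with hypidone. The number of mitochondrial members called higher dropped to 5 without MCAO 6, to 6 without hypidone 2 or 7 and to 3 without hypidone 8. Of 79 cytosolic ribosome genes 9 fell and 0 rose (11.4%, close to the 8.28% of all genes tested), with 78 estimates below 0 and a median of -0.35, and none of the 9 was stable. Between 0 and 22 cytosolic members fell when 1 library was left out, and the count was 0 without MCAO 6 or any 1 hypidone library. Without MCAO 5, 6 mitochondrial ribosome genes were called lower. The median of the cytosolic list stayed below 0 with DESeq2 size factors (-0.36) and library totals (-0.39), and that of the mitochondrial list above 0 (0.19 and 0.17). Cytosolic ribosomal protein genes have many processed copies in the genome, which the counting could have divided. Nuclear genes of the respiratory chain were called higher in 3 of 86 cases, under the share over all genes.

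Stress genes were mixed. Hsph1, a chaperone of the HSP110 family, was at 145, 133 and 111 CPM with MCAO and at 372, 313 and 334 CPM with hypidone, a log2 fold change of 1.39 ± 0.13 (adjusted p = 0.00183). It was the only one of 12 heat shock genes called higher (8.33%, close to the 8.23% of all genes tested), and 7 of the 12 estimates were above 0. Bag3, a co-chaperone of HSP70, fell, a call lost without MCAO 6 or any 1 hypidone library (adjusted p 0.0636 to 0.108). In the list of unfolded protein and integrated stress genes 2 of 15 rose and 3 fell (median 0.01). These shares were 13.3% and 20.0%, beside 8.23% and 8.28% of all genes tested. Atf4, the transcription factor whose translation the integrated stress response raises, and Chac1, one of its targets, rose by 0.87 ± 0.22 and 1.18 ± 0.22. The call of Atf4 was lost without any 1 hypidone library (adjusted p 0.0732 to 0.107) and that of Chac1 without hypidone 2 (adjusted p = 0.0535). Atf3, a transcription factor of injured neurons and stressed cells, was at 4.75, 12.6 and 19.1 CPM and at 1.24, 1.59 and 0.849 CPM, and fell by 3.30 ± 0.51. Osgin1, a target of the oxidative stress factor NRF2, was at 3.24, 4.95 and 5.22 CPM and at 0.345, 0.295 and 0.498 CPM, and fell by 3.55 ± 0.44. Of 12 hypoxia-induced genes 2 rose and 1 fell (16.7% and 8.33%, beside 8.23% and 8.28% of all genes tested, median -0.04). P4ha1, a collagen prolyl hydroxylase, rose by 1.59 ± 0.28 and Vegfa by 1.03 ± 0.22, while Slc2a1 fell by 1.03 ± 0.20. Of the 3, P4ha1 alone was stable. The lactate dehydrogenase gene Ldha rose by 0.77 ± 0.13, the 1 called of 16 glycolysis genes (6.25%, under the 8.23% of all genes tested). Of 16 p53 targets 8 fell and 1, Zmat3, rose (median -0.89), and Cdkn1a and Trp53inp1 were the stable ones. Only 2 of the 16 fell without MCAO 6 or hypidone 2 or 7, and the call of Zmat3 was lost without any 1 of the same libraries (adjusted p 0.0540 to 0.0573). Further, 5 of 14 apoptosis genes fell (35.7%, beside 8.28% of all genes tested), none of them stable. The 5 apoptosis genes that fell included the pro-apoptotic Bmf (-2.02 ± 0.36) and Bcl2l11 (-1.24 ± 0.34) and the protective Bcl2l1 (-0.61 ± 0.12) and Mcl1 (-0.77 ± 0.19), so that the list held members of both functions. Their calls were lost without hypidone 8, and those of Bcl2l11, Bcl2l1 and Mcl1 also without MCAO 6 and other libraries (adjusted p 0.0526 to 0.132), and those of Bcl2l11 and Mcl1 with limma on FPKM or with only the 6 libraries (adjusted p 0.0561 to 0.0808).

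Inflammation genes fell in part, and the MCAO libraries differed widely among themselves in most of them. In the list of Toll-like receptors and the NF-kB pathway 6 of 21 genes fell (28.6%, beside 8.28% of all genes tested) and 0 rose (median -0.72). Between 4 and 12 fell when 1 library was left out, and 4 were stable. Besides Tlr2 these were Tlr7, an endosomal receptor for single-stranded RNA, Nfkbia, the inhibitor that NF-kB itself induces, and Traf6, an adaptor of the pathway. Tlr7 was at 30.1, 101 and 57.5 CPM with MCAO and at 6.36, 7.76 and 5.13 CPM with hypidone, a log2 fold change of -3.29 ± 0.42 (adjusted p = 0.00446). Nfkbia, which glucocorticoids also induce, was at 59.8, 92.8 and 76.2 CPM and at 24.0, 29.7 and 35.4 CPM, and fell by 1.36 ± 0.19. Traf6 fell by 0.95 ± 0.16. Even the lowest MCAO library lay above every hypidone library in each of the 4 genes.

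Activated microglial genes fell in 10 of 20 cases (median -2.005), and all 20 estimates were below 0. Their mean log2 CPM was 4.54, 7.52 and 5.84 in MCAO 4, 5 and 6, 3.68 to 4.24 with hypidone and 3.24 to 3.63 in the controls. MCAO 4 thus lay within 1 unit of the hypidone libraries, and MCAO 5 lay about 3 units above MCAO 4. Cd68, a lysosomal protein of phagocytes, was at 33.3, 323 and 98.8 CPM with MCAO and at 21.4, 22.6 and 15.9 CPM with hypidone. Its log2 fold change was -2.93 ± 0.66 (adjusted p = 0.0210), or -1.74 without MCAO 5, and the call was lost without any 1 hypidone library (adjusted p 0.0742 to 0.0897). Trem2, a lipid receptor of microglia, was at 29.2, 133 and 61.8 CPM and at 19.3 to 20.3 CPM, a change of -1.93 ± 0.44, or -1.23 without MCAO 5, and its call was lost without MCAO 6 or any 1 hypidone library (adjusted p 0.0544 to 0.0865). Between 0 and 17 of the 20 were called when 1 library was left out, with 5 without MCAO 5, 2 without MCAO 6 and 17 without MCAO 4. Ccl3, a chemokine of activated microglia, was more even, at 6.14, 7.89 and 3.10 CPM and at 0.777, 0.236 and 0.117 CPM (-3.91 ± 0.70), with a call lost without hypidone 7 alone (adjusted p = 0.0532).

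Of 13 homeostatic microglial genes 2 were higher and 2 lower (15.4% each, beside 8.23% and 8.28% of all genes tested), with a median of 0.12. These counts turned on MCAO 5. Without MCAO 5, 9 were called higher and 2 lower, with a median of 0.61, and without MCAO 6 or any 1 hypidone library 0 were called in either direction. The mean log2 CPM of the list was 4.28, 5.83 and 4.73 in MCAO 4, 5 and 6, 5.06 to 5.26 with hypidone and 4.93 to 5.11 in the controls, so that MCAO 5 lay above and the other MCAO libraries below all of these. Slc2a5, the fructose transporter of resting microglia, was at 1.31, 3.00 and 1.65 CPM with MCAO and at 5.44, 4.96 and 5.39 CPM with hypidone, a change of 1.40 ± 0.32. Csf1r, the growth factor receptor of microglia, was at 157, 329 and 282 CPM and at 132, 140 and 103 CPM, a change of -1.03 ± 0.25. The calls of Slc2a5 and Csf1r were lost without MCAO 6 or any 1 hypidone library (adjusted p 0.0690 to 0.101). Macrophage and monocyte genes fell in 3 of 12 cases (25.0%, beside 8.28% of all genes tested). Their mean log2 CPM was 5.16 in MCAO 5, 0.44 and 2.33 in MCAO 4 and 6, and 0.56 to 2.19 in the hypidone libraries. Their median was -2.32, or -0.15 without MCAO 5, and 0 were called without MCAO 6 or any 1 hypidone library. Neutrophil and T cell genes were called in 0 of 7 and 0 of 3 cases, and interferon and antigen presentation genes in 0 of 15 and 0 of 12, with medians of 0.13 and 0.12 in those last lists (edgeR). At an unadjusted p under 0.05, 1 neutrophil, 1 T cell, 0 interferon and 1 antigen presentation gene passed. DESeq2 called 1 neutrophil gene and none of the other 3 lists, and limma voom with quality weights called 2, 1, 0 and 6 in the same order. Without MCAO 5, 5 of 12 antigen presentation genes were called higher (median 0.79), and the median of the interferon genes was 0.60 with 0 called.

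Reactive astrocyte genes fell in 11 of 17 cases and rose in 0 (64.7%, beside 8.28% of all genes tested, median -2.65). Their mean log2 CPM was 2.98, 6.01 and 5.39 in MCAO 4, 5 and 6, 2.49 to 2.88 with hypidone and 1.72 to 2.19 in the controls. Gfap, the intermediate filament of reactive astrocytes, was at 612, 2827 and 3257 CPM with MCAO and at 537, 294 and 290 CPM with hypidone, so that MCAO 4 stood close to hypidone 2. Its change was -2.58 ± 0.75 (adjusted p = 0.0466), and the call was lost without MCAO 5 or 6, control 4 or any 1 hypidone library (adjusted p 0.0640 to 0.154). Osmr, a subunit of the oncostatin M receptor, was at 11.7, 50.4 and 34.6 CPM and at 6.48, 5.34 and 4.80 CPM (-2.54 ± 0.47), a call lost without hypidone 7 or 8 (adjusted p 0.0544 to 0.0594). Complement genes fell in 6 of 17 cases (35.3%, beside 8.28% of all genes tested, median -1.97). They were led by C1qa, C1qb and C1qc, the chains of C1q, which begins the classical pathway. None of the 17 was called without MCAO 6 or any 1 hypidone library, and the median was -0.74 without MCAO 5. C1qb was at 130, 908 and 337 CPM and at 101, 103 and 86.6 CPM, a change of -2.24 ± 0.56, or -1.29 without MCAO 5. Its call was lost without MCAO 6 or any 1 hypidone library (adjusted p 0.0596 to 0.108). Limma on log2 of FPKM plus 1 also ended the calls of Cd68, Trem2, Gfap, C1qb and Chil3 (adjusted p 0.0505 to 0.103), and the fit of only the 6 libraries those of C1qb and Csf1r (adjusted p = 0.0577 and 0.0521). Resting astrocyte genes fell in 2 of 15 cases (13.3%, close to the 8.28% of all genes tested).

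Lysosomal genes fell in 11 of 19 cases (57.9%, beside 8.28% of all genes tested, median -0.85), and all 19 estimates were below 0. Npc1, the cholesterol exporter of the lysosomal membrane, was at 87.1, 127 and 105 CPM with MCAO and at 64.3, 56.0 and 56.4 CPM with hypidone, and fell by 0.85 ± 0.14 (adjusted p = 0.00872). Npc1 kept its call whichever library was left out. The mean log2 CPM of the list was 6.77, 8.11 and 7.42 in MCAO 4, 5 and 6 and 6.38 to 6.53 with hypidone, so it moved across the MCAO libraries in the order of the microglial list, and the part of microglial content in the lysosomal result was not tested. Without MCAO 6, 3 lysosomal genes were called, and without any 1 library between 2 and 17.

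**Figure D4:**
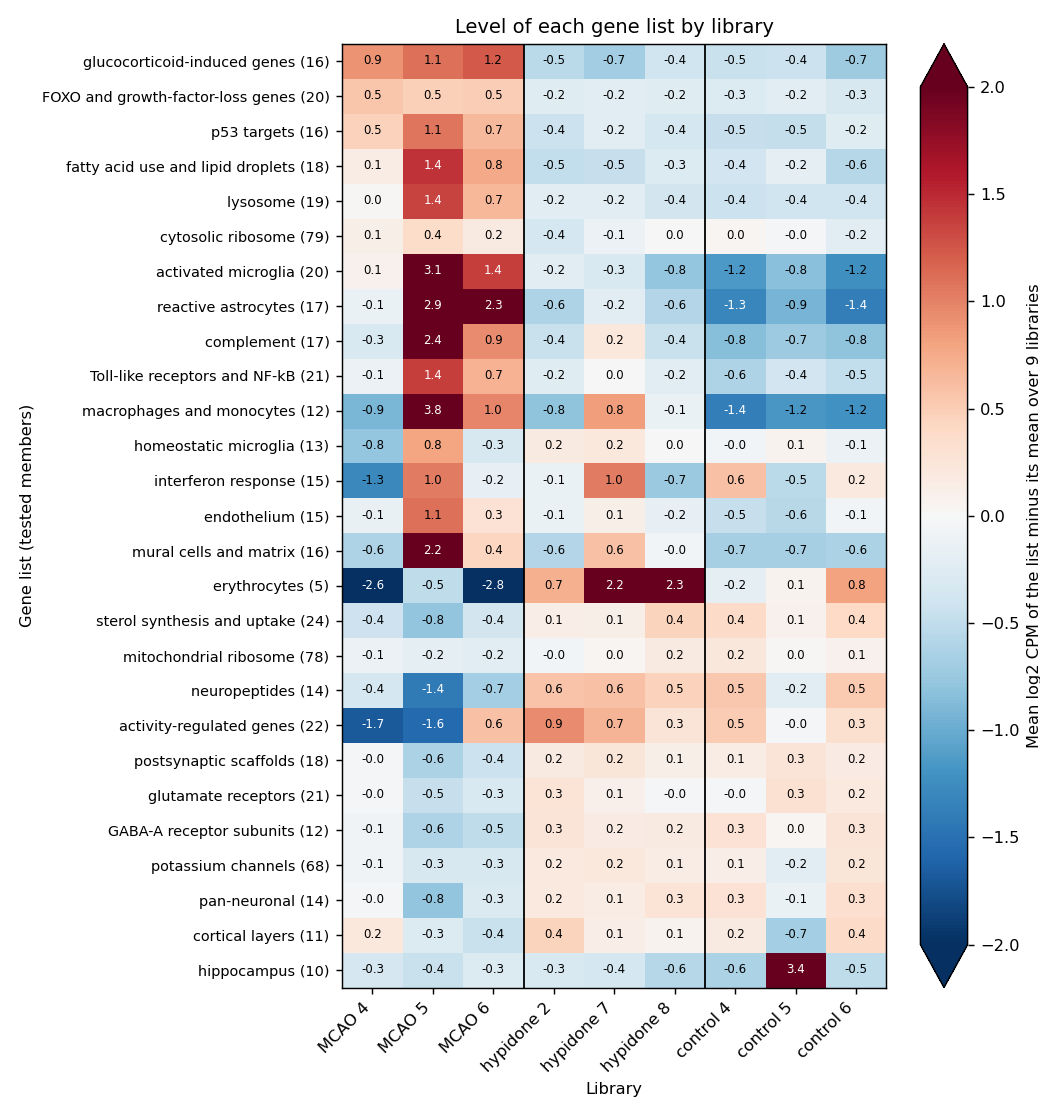
Mean log2 CPM of each gene list (rows, tested members in brackets) in each library (columns), minus the mean of that list over the 9 libraries, as colour and number. Glucocorticoid and FOXO genes are raised to a like degree in all 3 MCAO libraries, activated microglial, reactive astrocyte and complement genes mainly in MCAO 5 and 6, and the hippocampal list in control 5.

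**Figure D5:**
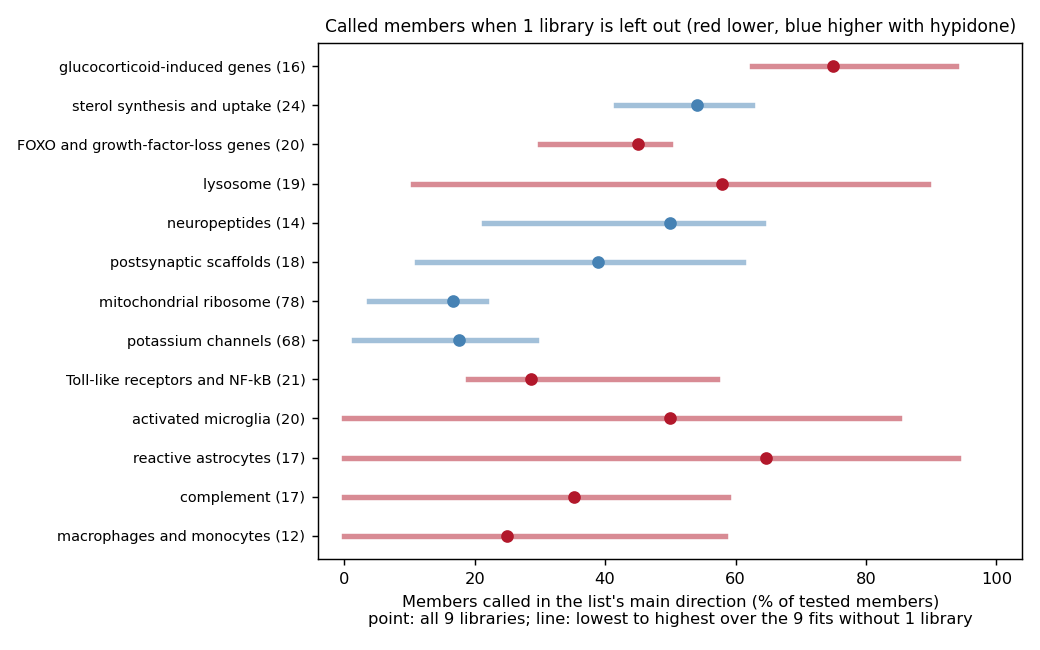
Members called in the main direction of each list, as a percent of tested members (x axis), with all 9 libraries (point) and as the range over the 9 fits that leave out 1 library (line). Glucocorticoid genes stay between 10 and 15 of 16 and sterol genes between 10 and 15 of 24, while activated microglial and reactive astrocyte genes run from 0 to 17 of 20 and from 0 to 16 of 17.

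Blood and vessel genes were called as well. All 5 erythrocyte genes rose (100%, beside 8.23% of all genes tested, median 3.59). Hba-a1, alpha globin, was at 1.76, 6.46 and 1.73 CPM with MCAO and at 16.1, 39.7 and 38.9 CPM with hypidone, a log2 fold change of 3.25 ± 0.58 (adjusted p = 0.0105), and every hypidone library lay above every control library (7.95 to 14.0 CPM). Hbb-bs, beta globin, was at 4.35, 16.2 and 1.51 CPM and at 44.5, 111 and 111 CPM. Hypidone 7 and 8 held the highest values of both, and 1 erythrocyte gene, Hba-a1, kept its call without hypidone 7 and without hypidone 8. Globin genes have near-identical copies, between which reads may have been divided. Of 15 endothelial genes 3 fell (20.0%, beside 8.28% of all genes tested), and 0 to 6 fell when 1 library was left out. Among the 3 was Mfsd2a, the lipid transporter that maintains the blood-brain barrier. Mfsd2a was at 50.3, 25.7 and 57.2 CPM with MCAO and 16.5, 12.8 and 17.5 CPM with hypidone (-1.51 ± 0.27). Its call was lost without hypidone 7 (adjusted p = 0.0517). Every hypidone library was below every control library in Mfsd2a (18.1 to 21.1 CPM).

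The serotonin targets of the drug and the classical cytokine genes Il1b, Tnf, Il6 and Ccl2 gave no calls in the edgeR test. Htr1a and Htr6, the serotonin receptors, had estimates of 0.45 ± 0.41 and 0.40 ± 0.27 (adjusted p = 0.462 and 0.314), and Slc6a4, the serotonin transporter made in raphe neurons, had too few counts to test, at no more than 0.176 CPM in any library. Of the 12 serotonin receptor genes 0 were called by edgeR and by DESeq2, 1 passed an unadjusted p under 0.05, and limma voom with quality weights called 4. Il1b was at 0.341, 0.547 and 0.357 CPM with MCAO and at 0.691, 0.856 and 0.586 CPM with hypidone, an estimate of 0.77 ± 0.59 in the upward direction that did not pass the test (adjusted p = 0.381). Ccl2, the main monocyte chemokine, was at 0.256, 1.98 and 3.79 CPM and at 0.115, 0.413 and 0.0879 CPM (-3.27 ± 1.01, adjusted p = 0.0551), and Tnf and Il6 had too few counts to test. In the whole list of cytokines and chemokines 3 of 14 genes fell and 0 rose (21.4%, beside 8.28% of all genes tested). The median was -1.06, with 5 estimates above 0. Those called were Ccl3, Tgfb1 (-1.49 ± 0.33) and Il1a (-1.97 ± 0.47), and none of the 3 was stable. Nlrp3, the sensor of the inflammasome, was called at -2.10 ± 0.57 (adjusted p = 0.0367) from 1.51, 2.50 and 1.81 CPM to 0.230, 0.649 and 0.469 CPM, a call lost without MCAO 5 or 6, control 6 or any 1 hypidone library (adjusted p 0.0560 to 0.122). Of 11 inflammasome and interleukin-1 genes 2 fell and 0 rose (18.2%, beside 8.28% of all genes tested), Nlrp3 and Aim2 (-2.22 ± 0.43). Neither was stable, and 2 estimates of that list were above 0. Aif1, the microglial protein IBA1, had an estimate of -0.87 ± 0.62 (adjusted p = 0.351) and overlapped between the groups.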

How the data were processed

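The authors deposited raw read counts per gene symbol, FPKM values, and a list of their group comparisons with fold changes (ratio) and q-values (p-values adjusted by them). Per the labels' protocols, total RNA came from a TRIzol extraction and a VAHTS kit was used for the libraries. The submitters' processing notes name mm10 and DESeq2, with aligner, counter and strandedness not given in the sources used here. Genes were kept with filterByExpr (14756 of 18138), scaled with TMM and fitted over all 9 libraries with 6 residual degrees of freedom (edgeR 4.0.16, R 4.3.3, quasi-likelihood F test, two-sided, Benjamini-Hochberg, threshold 0.05). The SE is the log2 fold change over the root of F. CPM is TMM-scaled, and log2 CPM of lists uses a prior count of 2. Members, the 60 gene lists and the rule for named genes were chosen with earlier results of these data known. The rule took, among called genes whose groups do not overlap, the 10 with the lowest p and the 6 with the largest change per direction, up to 4 per list, and set target and cytokine genes. A few genes under this rule are not reported here. On simulated counts of 14658 genes for this comparison the fit called 32 of the 100 true 2-fold changes and 78 of the 100 true 4-fold changes. There were 3 false calls of 113. The simulation drew libraries independently and gave all groups the same spread per gene. In the data the median range over all genes tested was 0.57 in the MCAO and 0.25 in the hypidone libraries. The simulation therefore gives no rate of false calls for these data. Alternatives were other scalings, filters and tools, only the 6 libraries, and each library left out. Of the 2437 called genes, 2428 had a q-value under 0.05 in the authors' deposited table and a fold in the same direction. Those q-values are from the same study, and DESeq2 as run here also called all 1215 higher and 1222 lower genes. The overlap is therefore no independent check.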

Additional observations from a re-analysis of the deposited data

How the results depend on the processing

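Counts of genes higher and lower were 1215 and 1222. They were 481 and 572 with a fold of at least 2, 1845 and 2166 with DESeq2 1.42.0, and 3916 and 3715 with limma voom and quality weights (limma 3.58.1). When 1 library was left out they ran from 315 to 1752 and from 233 to 2123 (388 and 341 without MCAO 6, 346 and 250 without hypidone 2, 350 and 234 without hypidone 7, 315 and 233 without hypidone 8, and 2123 lower without MCAO 4). Other scalings, filters and FPKM gave counts within 1.5 times, and so did the 6 libraries alone, with 1050 and 970. Among 202 named genes, 186 were called, and 79 of these kept their call in every alternative run. Over 3378 values of named genes under alternatives, 460 lost the call, 17 gained it and 3 reversed: Fos at 2.94, Fosb at 2.12 and Npas4 at 5.25, all without MCAO 6. Changes on the scale of log2 of FPKM plus 1 were smaller for rare genes, such as -1.16 for Asb4 and 1.24 for Npy5r, as the pseudocount implies. Of 1020 list medians 46 moved by more than the spread between libraries. No paired analysis was possible because the MCAO libraries (4, 5, 6) and the hypidone libraries (2, 7, 8) share no number. Depth was even, so genes under about 1 CPM, such as Il1b, are the ones that it limits.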

Other observations

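In a small set of called genes the hypidone libraries lay beyond both other groups. In 22 of the 1215 higher genes (1.81%) every hypidone library lay above all MCAO and control libraries, and in 40 of the 1222 lower genes (3.27%) below them, against 0.542% and 0.712% of all genes tested. The rule that a called gene separates hypidone from MCAO raises these shares, so no comparison between them was tested. Nwd2 was at 17.5, 10.7 and 10.2 CPM with MCAO, 58.7, 52.1 and 42.9 CPM with hypidone and 42.2, 30.5 and 40.9 CPM in the controls, and rose by 2.00 ± 0.24 (adjusted p = 0.00419). Cdh4, the adhesion molecule R-cadherin, was at 7.66 to 10.5 CPM with MCAO, 17.6 to 21.2 CPM with hypidone and 10.9 to 15.2 CPM in the controls, a change of 1.03 ± 0.19 whose call was lost without hypidone 7 (adjusted p = 0.0574). Ormdl3, a brake on sphingolipid synthesis, was at 71.6 to 83.5 CPM with MCAO, 48.2, 49.6 and 49.2 CPM with hypidone and 53.1 to 58.8 CPM in the controls, and fell by 0.66 ± 0.10 (adjusted p = 0.00650). These 3 genes were named after their values were seen.

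Clock and cell division genes gave single stable members. Per2, a repressor of the circadian clock that glucocorticoids and cyclic AMP can induce, was at 15.5, 18.5 and 17.5 CPM with MCAO and at 38.5, 41.9 and 33.0 CPM with hypidone, and rose by 1.14 ± 0.13 (adjusted p = 0.00394). Of 16 clock genes 2 rose and 2 fell (12.5% each, close to the 8.23% and 8.28% of all genes tested). The time of day of sampling is not given in the sources used here. Cenpa, the histone of centromeres, was at 5.97, 9.40 and 5.63 CPM and at 2.25, 2.07 and 1.03 CPM, and fell by 1.97 ± 0.37. It was the 1 called of 16 cell division genes (6.25%, under the 8.28% of all genes tested). The mean log2 CPM of that list was -0.93, 3.29 and 1.28 in MCAO 4, 5 and 6, and 11 of its genes were called lower without MCAO 4. Apod, a lipid-binding protein of glia, fell by 2.91 ± 0.36 from 843, 2196 and 2232 CPM to 187, 250 and 263 CPM, and was named after its values were seen. Among markers of brain regions, 2 of 7 thalamus genes fell (28.6%, beside 8.28% of all genes tested), Prkcd by 1.80 ± 0.41 and Plekhg1 by 1.39 ± 0.31. Of 12 striatum genes 2 rose (16.7%, beside 8.23% of all genes tested), the neuropeptide genes Tac1 and Penk counted above. In the hippocampus list 1 of 10 genes rose, Car12 by 3.31 ± 0.95. None of these calls was stable, and the part of the region sampled in them was not tested. Markers of cortical layers, the cerebellum, oligodendrocyte precursors, choroid plexus and ependyma gave 0 calls by the edgeR test. At an unadjusted p under 0.05, 1 layer gene and 3 precursor genes passed, with 0 in the other 3 lists, and DESeq2 called 1 layer and 2 precursor genes. Limma voom with quality weights called 5 layer, 4 precursor, 2 choroid plexus, 1 cerebellum and 0 ependyma genes.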
